A study of Mus musculus with 6 samples.

Results

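*Klf4*, *Grhl1*, *Grhl2*, *Grhl3*, *Ovol1*, *Zfp750*, *Prdm1*, *Cebpa* and *Cebpb* encode transcription factors known to drive epidermal differentiation downstream of p63. RNA counts of these 9 genes, of 55367 gene names in all, were compared between mouse keratinocytes with and without iASPP. The 9 were chosen by gene name, and all had enough counts to be tested. Primary mouse keratinocytes came from the skin of day 2 pups of mixed C57BL/6 and 129/Sv background. All cells were homozygous for a floxed *Ppp1r13l* allele (iASPP is its product, and exon 8 is the part deleted) and carried a Cre recombinase activated by tamoxifen, which the methods place in the ubiquitously active ROSA26 locus. The sample titles number the cultures of each condition, and the paper adjusted its comparison for batch. The number was taken here as the batch. Each of the 3 batches then holds a tamoxifen-treated culture (iASPP KO) and an untreated one (iASPP WT), so the 6 libraries were compared as 3 same-batch pairs. Whether the cultures of a batch came from the same pups is not given in the sources used here. The labels state 1 mM tamoxifen and the methods a micromolar dose. No group received tamoxifen without the floxed alleles, so the effects of the drug and of the deletion cannot be told apart.

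As background, the transcription factor p63 keeps basal keratinocytes in their epithelial state and switches on the factors that later carry cells upward through the epidermis. The C/EBP proteins act at the exit from the basal layer, Ovol1 restrains growth in cells that have left it, and Klf4, Zfp750, Grhl3 and Prdm1 act in the upper layers, where the cornified envelope and the lipid barrier are built. The cultures were kept in low calcium, a condition that holds mouse keratinocytes close to the basal state.

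Library totals ran from 20202517 to 25157117 counts. *Ppp1r13l* had 139 to 395 counts in the iASPP-KO cultures and 472 to 1100 in the iASPP-WT cultures, a log2 fold change of −1.45 (standard error, SE, 0.18, edgeR adjusted p = 0.0030). Adjusted p-values are those of edgeR's quasi-likelihood F test, Benjamini-Hochberg adjusted over all tested genes, unless another tool is named. The summed level of 10 keratinocyte markers, all of them detected, lay between 31221 and 38503 CPM (counts relative to the TMM-scaled library size) in all cultures. Batch 3 stood apart in its fibroblast markers. Its cultures held 595 and 821 CPM of 10 such markers, against 95.3 to 117 in the other 4 cultures. The 7 melanocyte markers were high in batches 1 and 3. In batches 1, 2 and 3 they summed to 894, 431 and 1065 CPM in iASPP KO and 1126, 367 and 1053 CPM in iASPP WT. The 15 leukocyte and macrophage markers summed to between 68.1 and 89.2 CPM with tamoxifen and between 46.1 and 71.0 without, and 3 to 8 of them had 0 counts in a library. *Ptprc*, which encodes the pan-leukocyte antigen CD45, had 0 to 50 counts in a library. In bulk RNA, fewer cells of a type and less RNA per cell cannot be told apart.

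In iASPP-KO keratinocytes, *Cebpb* was significantly higher, by 1.45-fold, and no other of the 9 factors passed an adjusted p of 0.05. *Prdm1* had the largest log2 fold change, 0.72 (adjusted p = 0.0692), and *Grhl1* the smallest, 0.02 (adjusted p = 0.962). All 9 log2 fold changes were above 0, as were those of 50.6% of all tested genes, and their median was 0.29 against 0.01 over all 14916 tested genes. Over all tested genes 2.17% were called higher in iASPP KO and 1.95% lower, or 4.12% in either direction. At an unadjusted p under 0.05, 4 of the 9 factors were higher (*Cebpb*, *Prdm1*, *Klf4* and *Cebpa*) and 0 lower, against 8.66% and 8.09% of all tested genes, and 0 were called lower by DESeq2 either.

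**Figure D1:**
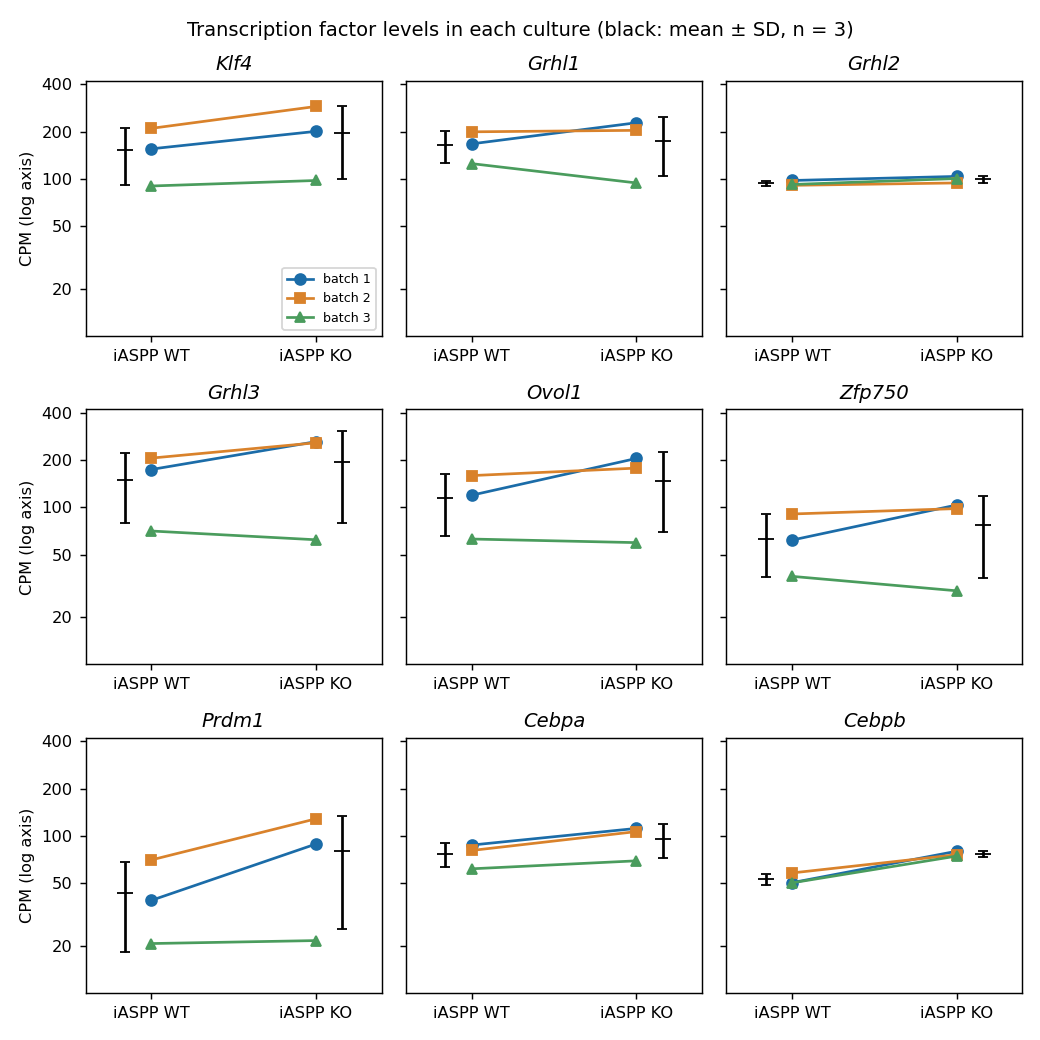
Level of each factor in CPM (log axis) in the iASPP-WT and iASPP-KO cultures, with a line joining the cultures of a batch and the mean ± SD of 3 cultures in black. The batch 3 line lies below both other lines for 7 factors but not for *Grhl2* and *Cebpb*, and *Cebpb* is the factor whose iASPP-KO cultures (74.3 to 79.8 CPM) all lie above its iASPP-WT cultures (50.2 to 58.0 CPM).

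The calls depended on the batches. Without batch 3, 7 of the 9 factors were significantly higher in iASPP KO, all but *Grhl1* and *Grhl2*, where 5.2% of all genes tested in those 4 libraries were. Their adjusted p ran from 9.93e-12 for *Prdm1* to 0.0476 for *Cebpa*, and from 9.93e-12 to 0.980 over all alternatives. A fit with a batch left out has 1 residual degree of freedom, so the spread of other genes carries most of its estimate of error. Without batch 1 and without batch 2, 0 of the 9 were called higher, where 1.09% and 1.14% of all genes were. In each of these edgeR fits 2 of the 9 had an unadjusted p under 0.05, and the share of all genes under it is not given here. DESeq2 on all batches called 2, *Cebpb* and *Prdm1*, and 3.65% of all genes. The same 2 were called without a filter on low counts (1.95% of all genes) and with at least 10 counts in every library (3.09%), and *Cebpb* alone with RLE scaling (2.47%), upper-quartile scaling (2.44%) and robust dispersion (2.57%). No factor was called lower in any of these fits, where 3.12% (DESeq2), 1.54%, 2.64%, 2.19%, 2.22% and 2.41% of all genes were in that order, nor without batch 1, 2 or 3 (0.978%, 0.768% and 4.34%). Within single batches, 5 factors were higher in iASPP KO in all 3 pairs (*Klf4*, *Grhl2*, *Prdm1*, *Cebpa*, *Cebpb*), which held for 19.5% of all tested genes. The other 4 (*Grhl1*, *Grhl3*, *Ovol1*, *Zfp750*) were higher in batches 1 and 2 and lower in batch 3, a pattern of 11.4% of all tested genes.

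**Figure D2:**
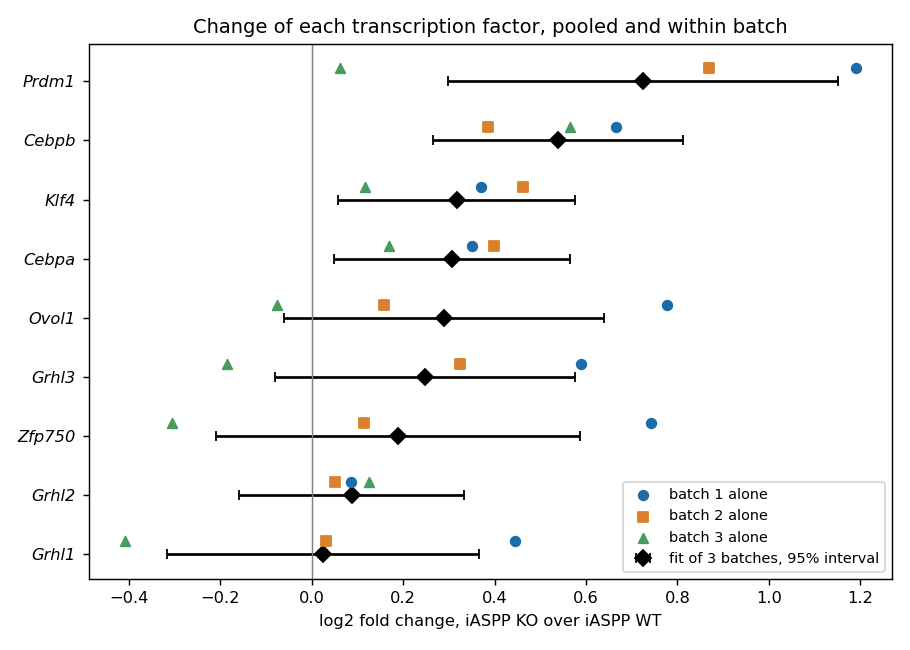
Log2 fold change of iASPP KO over iASPP WT for each factor, from the fit of 3 batches (diamond, with its 95% interval) and within each batch (coloured symbols). The interval lies above 0 for *Prdm1*, *Cebpb*, *Klf4* and *Cebpa*, and the batch 3 value is the lowest of the 3 for every factor but *Grhl2* and *Cebpb*.

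Promoter sequence is shown for the factor that passed the test, *Cebpb*, and for the 3 late factors *Prdm1*, *Klf4* and *Grhl3*. These 3 had similar patterns over the cultures, with correlations of log2 CPM from 0.94 to 0.98. *Cebpb* had a different one, with correlations of 0.29 to 0.50 with them. Each run holds the 250 bases before an annotated start, 5′ to 3′ on the gene's strand, from RefSeq promoters on GRCm38.p6. Windows were searched on both strands, from 250 bases before to 50 after the start, for TGANTCA (an AP1 site of the TRE type), AACNNGTT (Grainyhead) and TTGCNNAA (C/EBP). Capitals mark matches to these letters.
Cebpb, chr2:167688665-167688914, forward strand: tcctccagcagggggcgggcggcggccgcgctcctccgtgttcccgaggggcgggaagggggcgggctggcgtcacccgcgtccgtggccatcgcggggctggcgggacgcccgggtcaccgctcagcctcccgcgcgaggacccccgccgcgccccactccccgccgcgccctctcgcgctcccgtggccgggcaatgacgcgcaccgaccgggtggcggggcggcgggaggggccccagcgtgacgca
Prdm1, chr10:44458749-44458998, reverse strand: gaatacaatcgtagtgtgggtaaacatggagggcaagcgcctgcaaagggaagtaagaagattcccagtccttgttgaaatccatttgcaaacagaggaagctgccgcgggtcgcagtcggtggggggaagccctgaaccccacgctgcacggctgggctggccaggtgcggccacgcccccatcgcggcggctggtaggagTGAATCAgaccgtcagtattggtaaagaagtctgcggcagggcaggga
Klf4, chr4:55532476-55532725, reverse strand: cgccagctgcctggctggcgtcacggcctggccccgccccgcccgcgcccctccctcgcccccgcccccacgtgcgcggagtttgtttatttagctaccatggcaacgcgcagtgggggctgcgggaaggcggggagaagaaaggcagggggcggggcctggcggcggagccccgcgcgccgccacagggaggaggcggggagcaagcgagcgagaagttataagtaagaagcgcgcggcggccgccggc
Grhl3, chr4:135573633-135573882, reverse strand: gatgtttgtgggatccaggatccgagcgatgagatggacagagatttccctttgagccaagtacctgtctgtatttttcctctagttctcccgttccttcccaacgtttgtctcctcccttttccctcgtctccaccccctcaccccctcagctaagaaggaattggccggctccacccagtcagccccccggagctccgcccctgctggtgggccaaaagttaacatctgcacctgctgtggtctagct

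Of the 6 factors with a window in the table (*Cebpa*, *Cebpb*, *Grhl1*, *Grhl3*, *Klf4* and *Prdm1*), 1 held a match. *Prdm1* has TGAATCA starting 48 bases before its start, a match to the AP1 letters. This RefSeq start lies inside the span the count table gives for *Prdm1*, so it is an internal start of that gene model. Over all 32851 windows of this length, 7.81% held the AP1 letters, 4.2% the Grainyhead letters and 10.8% the C/EBP letters. The looser p53 family pattern (the C and G of both arms, on either strand) was also found in all 6 and in 70.2% of all windows. The run before *Cebpb* is 81.6% G or C, and that before *Grhl3* 56%. A match is a description of letters and no evidence of binding.

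The C/EBP factors are basic leucine zipper proteins that keratinocytes use when they leave the basal layer. *Cebpb* (chromosome 2, 167688915 to 167690418, GRCm38, forward strand), a gene of 1 exon, had 79.8, 75.9 and 74.3 CPM in the treated (iASPP KO) cultures of batches 1, 2 and 3. Their untreated partners had 50.3, 58.0 and 50.2 CPM. Every iASPP-KO culture lay above every iASPP-WT culture, an order found in 5.26% of all tested genes, with the reverse in 5.46%. Mean levels of 76.7 ± 2.84 and 52.9 ± 4.49 CPM (SD, n = 3 each) gave a log2 fold change of 0.54 (SE 0.12, 95% interval 0.27 to 0.81, adjusted p = 0.0389). Within batches it was 0.66, 0.39 and 0.57. Each of these is beyond counting error, which for batch 2 allows 0.28 to 0.49. The call was lost without batch 1 (adjusted p = 0.221) and without batch 2 (edgeR adjusted p = 0.128), at log2 fold changes of 0.48 and 0.62, and the adjusted p ran from 0.00437 (without batch 3) to 0.973 (without the batch term) over all alternatives.

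*Cebpa* (chromosome 7, 35119293 to 35121928, forward strand) had 112, 106 and 69.3 CPM in the iASPP-KO cultures and 87.4, 80.7 and 61.7 CPM in the iASPP-WT cultures. The groups overlapped, while each iASPP-KO culture lay above its own batch's iASPP-WT culture. Its log2 fold change was 0.31 (SE 0.12, 95% interval 0.05 to 0.57), and edgeR gave an adjusted p of 0.209. Per kilobase of exon, the log2 ratio of *Cebpb* to *Cebpa* was 0.33, 0.32 and 0.91 in iASPP KO and 0.01, 0.33 and 0.51 in iASPP WT. It was thus higher in iASPP KO by 0.31 and 0.40 in batches 1 and 3 and −0.01 apart in batch 2. This difference was not tested.

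*Prdm1* (chromosome 10, 44437177 to 44528501, reverse strand) encodes Blimp1, a zinc finger repressor known for late steps of granular layer maturation and for its roles in lymphocytes and macrophages. Its RefSeq promoter is the one with the AP1 letters above. It had 88.8, 128 and 21.5 CPM in the treated cultures of batches 1, 2 and 3 and 38.8, 70.3 and 20.6 CPM in the untreated ones. The iASPP-KO level was 2.29 times the iASPP-WT level in batch 1 and 1.83 times in batch 2. In batch 3, with 507 and 463 counts, the log2 ratio was 0.06, and counting error alone allows −0.12 to 0.25. Mean levels of 79.6 ± 54.0 and 43.2 ± 25.1 CPM (SD, n = 3 each) gave a log2 fold change of 0.72 (SE 0.19, 95% interval 0.30 to 1.15, edgeR adjusted p = 0.0692).

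The call for *Prdm1* turned on the processing and on the batches used. It passed with DESeq2 (adjusted p = 0.0118), without a filter on low counts (6.33e-05 by edgeR), with at least 10 counts in every library (0.0481 by edgeR) and without batch 3 (9.93e-12 by edgeR, at a log2 fold change of 1.03). It did not pass without batch 1 (edgeR adjusted p = 0.346) or without batch 2 (edgeR adjusted p = 0.316), at log2 fold changes of 0.49 and 0.64. The adjusted p ran up to 0.977 over the alternatives. Of the macrophage markers, *Csf1r* was also higher in iASPP KO, with 18.5, 28.8 and 5.23 CPM against 9.09, 15.1 and 1.92 (log2 fold change 1.11, SE 0.21, edgeR adjusted p = 0.0206). It was the only one called of 8 tested leukocyte and macrophage markers. Over the batches these 8 were split. Both batch 3 cultures lay below the other 4 for 2 of them, *Csf1r* and *Cd68*, and above for 2, against 19.3% and 19.1% of all tested genes. *Lyz2* had 59.1 (iASPP KO) and 49.6 CPM (iASPP WT) in batch 3, against 1.11 to 4.81 CPM in the other cultures. The part of such cells in the *Prdm1* and *Cebpb* values was not tested.

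Klf4, Zfp750 and Ovol1 are zinc finger proteins. Klf4 is required for the skin barrier, Zfp750 is a direct target of p63 that switches on *Klf4* in human cells, and Ovol1 represses growth genes as keratinocytes commit to differentiation. *Klf4* (chromosome 4, 55527143 to 55532466, reverse strand) had 201, 289 and 97.7 CPM in iASPP KO and 155, 209.9 and 90.1 CPM in iASPP WT. Each iASPP-KO culture was above its batch's partner, by log2 ratios of 0.37, 0.46 and 0.12, and the groups overlapped. The log2 fold change was 0.32 (SE 0.12, 95% interval 0.06 to 0.58, edgeR adjusted p = 0.193).

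*Zfp750* (chromosome 11, 121510978 to 121519333, reverse strand) had 104, 98.2 and 29.4 CPM in iASPP KO and 61.9, 90.8 and 36.4 CPM in iASPP WT. The batches went apart, with log2 ratios of 0.74, 0.11 and −0.30. In batch 3 counting error alone allows −0.45 to −0.16. The fitted log2 fold change was 0.19 (95% interval −0.21 to 0.59, edgeR adjusted p = 0.680) and −0.09 without batch 1.

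*Ovol1* (chromosome 19, 5549136 to 5560646, reverse strand) had 205, 178 and 59.7 CPM in iASPP KO and 119.5, 159 and 62.9 CPM in iASPP WT. Its iASPP-KO level was 1.72 times that of iASPP WT in batch 1, 1.12 times in batch 2 and 0.949 times in batch 3, where the difference was within counting error. The log2 fold change was 0.29 (95% interval −0.06 to 0.64, edgeR adjusted p = 0.411). Its relative *Ovol2*, which holds epithelial cells in their state, was low, at 1.58 ± 0.953 CPM with the deletion and 2.82 ± 1.50 CPM without (SD, n = 3 each, log2 fold change −0.86, edgeR adjusted p = 0.465).

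The Grainyhead-like factors share a DNA-binding domain and a set of epithelial target genes. Grhl3 is needed for the barrier and for wound closure, Grhl1 for desmosomal cadherin expression and hair anchorage, and Grhl2 for epithelial adhesion genes. *Grhl3* (chromosome 4, 135541888 to 135573630, reverse strand) had 262, 258 and 62.2 CPM in iASPP KO and 174, 206 and 70.7 CPM in iASPP WT. The iASPP-KO culture was the higher one in batches 1 and 2 and the lower one in batch 3, and each difference was beyond counting error. The log2 fold change was 0.25 (SE 0.15, 95% interval −0.08 to 0.58, edgeR adjusted p = 0.465).

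*Grhl1* (chromosome 12, 24572283 to 24617391, forward strand) had 228, 204 and 94.3 CPM in iASPP KO and 167, 199 and 125 CPM in iASPP WT. Batches 1 and 3 moved by about the same size in opposite directions, with log2 ratios of 0.45 and −0.41, and batch 2 by 0.03. The fitted value was 0.02 (95% interval −0.32 to 0.37), and −0.18 without batch 1. *Grhl2* (chromosome 15, 37233036 to 37363569, forward strand) was the steadiest of the 9, with 104, 94.3 and 101 CPM in iASPP KO and 97.7, 91.0 and 92.2 CPM in iASPP WT. Its log2 fold change was 0.09 (95% interval −0.16 to 0.33, edgeR adjusted p = 0.774). Per kilobase, the log2 ratio of *Grhl3* to *Grhl2* was 2.96, 3.08 and 0.93 in iASPP KO and 2.46, 2.81 and 1.25 in iASPP WT. The ratio was thus above that of the same batch's iASPP-WT culture by 0.50 and 0.27 in batches 1 and 2 and below it by 0.31 in batch 3 (a difference of −0.31).

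Levels of different genes were compared as CPM per kilobase of merged exon length. In iASPP WT the order of the means was *Grhl3* (53.9 ± 25.4), *Klf4* (49.8 ± 19.7), *Cebpb* (35.1 ± 2.99), *Ovol1* (32.7 ± 13.9), *Grhl1* (29.6 ± 6.73), *Cebpa* (29.1 ± 5.06), *Zfp750* (19.5 ± 8.42), *Grhl2* (10.9 ± 0.418) and *Prdm1* (7.75 ± 4.50, SD, n = 3 cultures each). Among neighbours in this order, only *Cebpa* over *Zfp750* and *Zfp750* over *Grhl2* held in all 3 iASPP-WT cultures. In iASPP KO the order was the same but for 2 exchanges, *Cebpa* above *Grhl1* and *Prdm1* above *Grhl2*. *Cebpb* ranked 4 in batches 1 and 2 and 1 in batch 3, in both conditions. *Grhl3* ranked 1 or 2 in batches 1 and 2, and in batch 3 it ranked 4 in iASPP KO and 3 in iASPP WT.

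**Figure D3:**
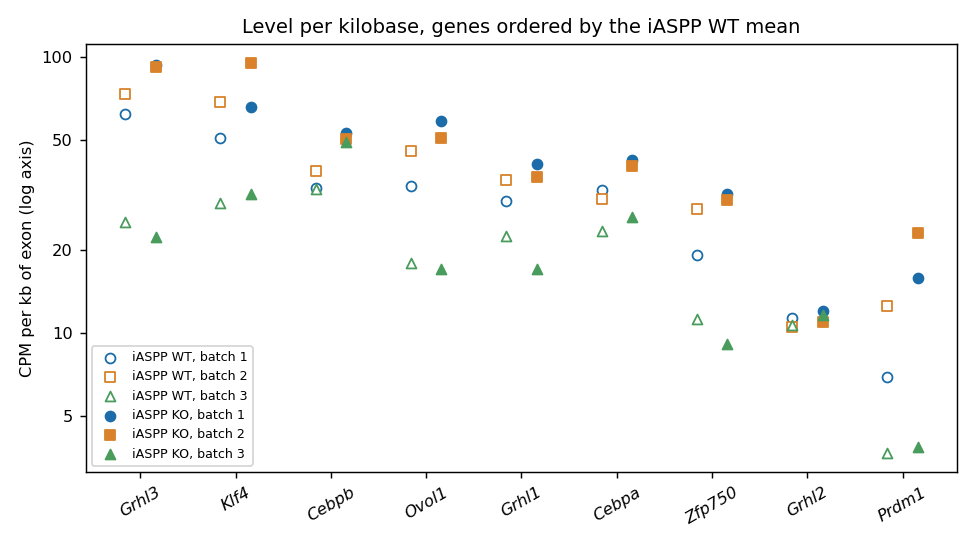
CPM per kilobase of merged exon length (log axis) of each factor in each culture, open for iASPP WT and filled for iASPP KO. *Grhl3* spans 22.3 to 94.0 over the 6 cultures and *Prdm1* 3.70 to 23.0, while *Grhl2* spans 10.6 to 12.04.

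In 7 of the 9 factors batch 3 differed from the other batches by more than iASPP KO differed from iASPP WT. In the same 7, both batch 3 cultures lay below all 4 other cultures, against 19.3% of all tested genes, and *Grhl2* and *Cebpb* were the exceptions. Among the iASPP-WT cultures, batch 3 lay below the mean of the other batches by a log2 difference of −1.42 for *Grhl3*, −1.34 for *Prdm1*, −1.13 for *Ovol1*, −1.04 for *Zfp750* and −1.002 for *Klf4*. For *Grhl1* and *Cebpa* it was −0.54 and −0.44, and for *Cebpb* and *Grhl2* −0.11 and −0.03. Among the iASPP-KO cultures the same differences were −2.06 for *Grhl3*, −2.30 for *Prdm1*, −1.68 for *Ovol1*, −1.77 for *Zfp750* and −1.30 for *Klf4*. For *Grhl1* and *Cebpa* they were −1.19 and −0.65, and for *Cebpb* and *Grhl2* −0.07 and 0.02. The batch difference was thus wider in iASPP KO for each of the 7 factors low in batch 3. This restates their lower log2 ratio of iASPP KO to iASPP WT in that batch. Whether the batch difference differed between the conditions was not tested.

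The genes of the layers these factors act in were also low in batch 3. Both batch 3 cultures lay below the other 4 for 16 of 24 tested granular and cornified envelope genes, 16 of 21 genes described as Grainyhead targets and 8 of 12 spinous genes. Of all tested genes, 19.3% lay below in this way and 19.1% above. The summed level of the 9 factors was 609 and 610 CPM in the batch 3 cultures and 953 to 1432 in the others. The 10 keratinocyte markers were split, with 3 lower and 3 higher in batch 3, and all 10 fibroblast markers were higher there. Of these 10, *Col1a2* and *Col3a1* were significantly lower in iASPP KO. The part of fibroblasts in the batch 3 values was not tested.

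**Figure D4:**
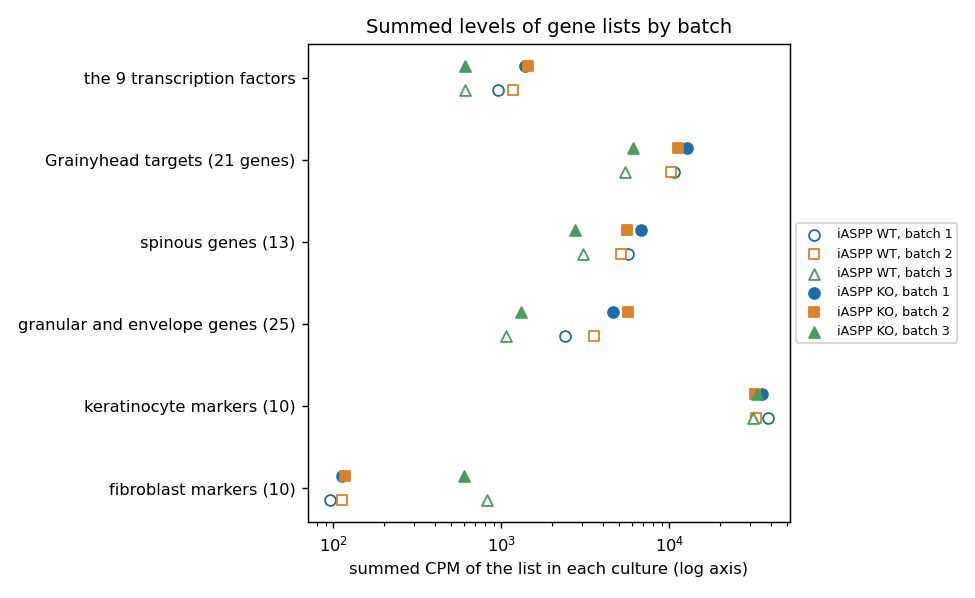
Summed CPM (log axis) of 6 gene lists in each culture, open for iASPP WT and filled for iASPP KO. The batch 3 triangles lie to the left for the 9 factors and the differentiation lists, to the right for the fibroblast markers (595 and 821 against 95.3 to 117), and for the keratinocyte markers the iASPP-WT one is the lowest of all (31221) and the iASPP-KO one lies among the others (33084).

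Other transcription factors of the epidermis gave few calls. *Trp63*, which encodes p63, had 180.5, 161 and 125 CPM in iASPP KO and 179.8, 171 and 168 CPM in iASPP WT (log2 fold change −0.17, edgeR adjusted p = 0.566). Of 33 tested relatives and other epidermal factors, 1 was significantly higher in iASPP KO and 3 lower, against 2.17% and 1.95% of all tested genes. The median log2 fold change of the 33 was 0.10. The one that rose was *Hopx*, an atypical homeodomain cofactor of differentiating keratinocytes, from 135 ± 83.5 to 281 ± 139 CPM (SD, n = 3 each, log2 fold change 1.12, SE 0.13, edgeR adjusted p = 0.0019). Those that fell included the POU factor gene *Pou3f1* and the homeobox gene *Barx2*, with log2 fold changes of −0.61 and −0.56 (adjusted p = 0.0353 and 0.0307 by edgeR). The close relatives *Klf5* and *Cebpd* had log2 fold changes of 0.15 and 0.14 (adjusted p = 0.580 and 0.804 by edgeR). Without batch 3, 5 of these factors were higher, where 5.2% of all genes were. Without batch 1 or 2 the lower ones were 1 and 0, against 0.978% and 0.768% of all genes.

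Among 21 genes described as Grainyhead targets, 4 were significantly higher in iASPP KO and 0 lower (5 and 1 at an unadjusted p under 0.05 by edgeR), with a median log2 fold change of 0.17. They were *Prss8*, a membrane serine protease of the barrier (log2 fold change 0.79, adjusted p = 0.0147), *Cldn4*, a tight junction claudin (0.64, adjusted p = 0.0238), *Tgm1*, the transglutaminase that cross-links the envelope (0.57, adjusted p = 0.0292), and the plakin gene *Ppl* (0.52, adjusted p = 0.0340, all from edgeR). Over all tested genes 2.17% were called higher and 1.95% lower (8.66% and 8.09% at an unadjusted p under 0.05). Without batches 1, 2 and 3, 1.09%, 1.14% and 5.2% of all genes were higher and 0.978%, 0.768% and 4.34% lower. Of the 21 targets, the number higher was then 0, 2 and 7 and the number lower 2, 0 and 1, so that without batch 1 only lower calls were left. There was also 1 lower with DESeq2, RLE or upper-quartile scaling, no filter, and at least 10 counts in every library.

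Of 24 tested granular and cornified envelope genes, 8 were significantly higher and 2 lower, with a median log2 fold change of 0.56 (2.17% and 1.95% of all tested genes were higher and lower). *Tchhl1* (1.86), *Sprr2d* (1.58) and the transglutaminase *Tgm3* (1.45) had the largest rises, and *Flg2* (−2.16) and *Flg* (−0.89) the falls, all as log2 fold changes. The place of *Tgm3* rests on batch 3, where its log2 ratio was 2.94, against 0.95 and 0.70 in batches 1 and 2. In those batches *Cdsn*, another of the 8, had 1.80 and 0.81. The number higher was 4, 6 and 15 without batches 1, 2 and 3, where 1.09%, 1.14% and 5.2% of all genes were. The number lower was 2 each time, against 0.978%, 0.768% and 4.34% of all genes. Of 12 tested spinous genes 1 was higher and 2 lower, with a median of −0.33. *Sbsn*, encoding a secreted suprabasal protein, rose by 0.67 on the log2 scale, and the suprabasal keratins *Krt77* and *Krt10* had log2 fold changes of −1.33 and −1.31. The fall of *Krt10* came from batches 1 and 2, with log2 ratios of −2.01, −1.58 and −0.15 in batches 1, 2 and 3. Those of *Krt77* were −0.78, −1.24 and −1.92. Without batches 1, 2 and 3, 0, 0 and 3 spinous genes were higher and 2, 0 and 3 lower. *Tgm1* and 5 other genes stand in 2 of these lists.

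Over the 6 cultures, 7 of the 9 factors rose and fell together. Pearson correlations of log2 CPM between *Klf4*, *Grhl1*, *Grhl3*, *Ovol1*, *Zfp750*, *Prdm1* and *Cebpa* ran from 0.83 (*Grhl1* and *Cebpa*) to 0.99 (*Ovol1* and *Zfp750*). With *Grhl2* the first 6 of these ran from −0.06 to 0.10, and *Cebpa* had 0.41. *Cebpb* had 0.19 to 0.59 with the other 8. These values describe 6 libraries that share batches, and batch 3 is lowest for all 7 of these factors. Of all tested genes, *Arl8b*, *Tmem98* and *Naxe* had the pattern over the 6 cultures most like that of *Cebpb*, with correlations of 0.996, 0.995 and 0.992. Of these, *Tmem98* was significantly higher in iASPP KO (log2 fold change 1.14, edgeR adjusted p = 0.0084). The pattern of *Cebpb* itself separates iASPP KO from iASPP WT, so this likeness and the call are not independent.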

How the data were processed

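RNA of 6 primary mouse keratinocyte cultures was depleted of ribosomal RNA and sequenced as single reads of 42 bases. Per the file headers and the methods, the authors trimmed adapters with Cutadapt, aligned reads to mm10 (GRCm38) with STAR and the GENCODE vM25 annotation, and deposited raw counts per gene name from featureCounts 2.0.0, over exons and by strand, without normalization. A deposited table of the authors' own DESeq2 comparison (means, log2 fold changes, p-values) was not used.

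In R 4.3.3 with edgeR 4.0.16, genes were kept by filterByExpr, scaled by TMM and fitted with glmQLFit on batch and condition; glmQLFTest p-values were adjusted by Benjamini-Hochberg over 14916 genes (threshold 0.05). The standard error (SE) comes from the log2 fold change and its F statistic. Within a batch, log2 ratios are of CPM with a prior count of 2, and their 95% counting intervals are exact (Clopper-Pearson) and cover counting error only, since PCR copies were not told apart. The p-values rest on the spread between the 3 pairs. Each gene's spread was moderated toward that of the other genes, with a prior of 8.17 degrees of freedom. They are thus not a measure of 1 gene's own spread alone. The steps were tested on simulated data. Batch pairs the cultures by the number in their sample titles: same-batch cultures correlated at 0.302, 0.368 and 0.568 in their deviations from the condition means. Different-batch cultures correlated at 0.179 and 0.0856 between batches 1 and 2, and at −0.427 to −0.288 between batch 3 and the others. Cultures of one condition differed by a chi-square per gene of 39.7 to 173, so none was taken for a copy.

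The factors, gene lists and tests were chosen with earlier results of these data known. Named genes are the 9 factors, *Ppp1r13l*, 4 relatives, up to 3 genes a list and direction by size of change among those called, the 3 genes most correlated with the factor of smallest adjusted p, and fixed markers of other cell types. *Ppl* and *Cdsn* were named after their values were seen. Alternatives were no batch term, DESeq2 1.42.0, RLE or upper-quartile scaling, no filter or at least 10 counts in every library, robust dispersion, and each batch left out. Of the 42-base windows of each factor's longest GENCODE vM21 transcript, 0.770% occur in another gene for *Klf4* and 0 for the other 8. Protein sequences of the families were not analysed here, and 1 gene of the lists is not reported here. Figures used Python 3.11.15 and matplotlib 3.10.9.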

Additional observations from a re-analysis of the deposited data

How the results depend on the processing

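The number of factors significantly higher in iASPP KO was 1 with edgeR and the batch term. It was 0 without the batch term (with no replicate block). In that fit 1 factor, *Cebpb*, had an unadjusted p under 0.05 by edgeR, and the share of all genes under it is not given here. The number of factors significantly higher depended on other settings too. It was 2 with DESeq2, 2 without a filter on low counts and 2 with at least 10 counts in every library, and 1 with RLE scaling, upper-quartile scaling or robust dispersion. With a batch left out it ran from 0 to 7. Of all genes, 323 were higher and 291 lower with edgeR. Without the batch term 0 were higher and 0 lower, and without a filter 624 and 491 were. With a batch left out the numbers ran from 169 to 793 higher and from 117 to 662 lower. No factor was called lower in any of these fits. Of the 9 log2 fold changes, 2 changed sign, both without batch 1: the log2 fold change of *Grhl1* ran from −0.18 to 0.24 with a batch left out, and that of *Zfp750* from −0.087 to 0.43. Fits without a batch have 4 libraries and 1 residual degree of freedom, and the spread of other genes then carries most of the estimate. The cause of these changes was not tested.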
